A study of Homo sapiens with 28 samples.

Results

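The CDKN2A, CDKN2B and MTAP locus lies on the short arm of chromosome 9. Every consensus peak on chromosome 9 between 21.5 and 22.5 Mb (GRCh38) was taken, which gave 58 of the 105048 peaks in the table and 58 of the 4656 on chromosome 9. No peak crossed either end of the window. Accessibility was measured by ATAC-seq, in which a transposase inserts sequencing adapters into open chromatin, so that a peak's read count follows how open it is. The locus was selected on measured values: its peak counts were already known to be low in cells adapted to olaparib. The values of adapted cells against untreated cells are therefore given as a description, with no test.

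All libraries came from Kuramochi, an established ovarian cancer cell line that the labels give as epithelial and BRCA2-mutant. BRCA2 is needed for homologous recombination, and olaparib inhibits PARP enzymes, which such cells depend on. C was untreated. The 7 adapted populations (T5, T10, T20, T40, T80, T160 or T320) grew resistant at the olaparib concentration in their name, in uM, and were exposed to it. P10 and P320, the persister cells, had 9 days of 10 or 320 uM without earlier adaptation. A CD24/CD44 sort was applied to C and to the adapted cells, of which the CD24-low, CD44-high fraction was kept, and none is named for the persister cells. Where T or P is set against C, sort and treatment cannot be told apart. Each of the 10 populations had 2 libraries, and the labels do not say whether these came from separate cultures, so spreads and p-values cover only the difference between 2 libraries, which may be technical. The other 8 labelled samples, T320 cells with or without drug and 4 of them after 120 drug-free days, were not analysed here.

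CDKN2A encodes proteins from separate first exons. p16 (INK4a) blocks CDK4 and CDK6 and so keeps RB1 able to hold cells before S phase, while p14ARF, which starts further upstream, binds and inhibits the ubiquitin ligase MDM2. CDKN2B encodes p15 (INK4b), a close relative of p16. CDKN2B-AS1 (ANRIL) is a long non-coding RNA that starts beside the ARF start and runs away from it across CDKN2B. MTAP, their neighbour, encodes the phosphorylase that salvages methionine from methylthioadenosine, and in many human cancers the segment is deleted, often together with MTAP.

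Each library's segment counts can be read only as relative amounts. In a bulk library, fewer cells with an open segment and a less open segment in every cell cannot be told apart, and a count per peak does not separate accessibility from the number of DNA copies.

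The gene starts that the values below turn on are shown first, as the 300 bases from 250 before to 50 after each start (RefSeq, GRCh38.p14). They are the MTAP start (chr9:21802386-21802685, plus strand), the ARF start of CDKN2A (chr9:21995275-21995574, minus strand), the p16 start of CDKN2A (chr9:21974808-21975107, minus strand) and the CDKN2B start (chr9:22009256-22009555, minus strand). Capitals mark GGGCGG (a GC box) and CCAAT on either strand, where they read CCGCCC and ATTGG.
MTAP: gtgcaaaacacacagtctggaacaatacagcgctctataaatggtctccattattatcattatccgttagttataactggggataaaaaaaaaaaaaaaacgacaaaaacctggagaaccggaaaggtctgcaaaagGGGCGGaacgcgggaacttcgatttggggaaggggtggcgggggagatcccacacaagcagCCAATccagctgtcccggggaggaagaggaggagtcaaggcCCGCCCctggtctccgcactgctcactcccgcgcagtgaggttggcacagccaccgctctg
CDKN2A, ARF start: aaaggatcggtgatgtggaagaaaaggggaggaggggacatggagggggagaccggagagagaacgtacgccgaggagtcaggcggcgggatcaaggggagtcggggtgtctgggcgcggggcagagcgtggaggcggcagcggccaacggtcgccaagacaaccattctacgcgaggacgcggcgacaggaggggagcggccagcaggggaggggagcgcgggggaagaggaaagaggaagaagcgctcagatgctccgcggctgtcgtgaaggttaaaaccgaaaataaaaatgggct
CDKN2A, p16 start: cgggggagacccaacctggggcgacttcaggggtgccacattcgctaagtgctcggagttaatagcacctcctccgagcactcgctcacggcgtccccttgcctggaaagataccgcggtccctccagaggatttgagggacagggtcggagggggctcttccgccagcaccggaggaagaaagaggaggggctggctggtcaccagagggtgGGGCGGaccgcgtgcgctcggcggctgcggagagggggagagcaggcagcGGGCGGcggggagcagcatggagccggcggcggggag
CDKN2B: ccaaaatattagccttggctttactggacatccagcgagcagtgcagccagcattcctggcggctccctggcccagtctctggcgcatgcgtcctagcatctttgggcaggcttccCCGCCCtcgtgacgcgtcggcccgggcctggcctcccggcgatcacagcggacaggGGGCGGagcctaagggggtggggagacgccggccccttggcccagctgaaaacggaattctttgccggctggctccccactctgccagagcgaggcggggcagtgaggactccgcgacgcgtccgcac

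Each of these stretches lay inside its own peak. G and C made up 53% of the MTAP start, 63.3% of the ARF start, 69.0% of the p16 start and 67.3% of the CDKN2B start, with 15, 28, 26 and 25 CpG. The GC box was found at 2 places in the MTAP, p16 and CDKN2B starts and at none in the ARF start, and CCAAT only at 1 place in the MTAP start. Of 35116 such promoter windows in RefSeq, 45% held a GC box and 34.6% a CCAAT on either strand. A match describes the letters only.

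The libraries held 9627970 to 29699950 counts in peaks. Replicate 1 of C and of each T population had fewer counts than replicate 2, while the P libraries had 22184883 or more. Levels are given as CPM, counts relative to the TMM-scaled size of the library. A gene-end peak lies within 1 kb of either end of a gene, so it need not mark that gene's start. Epithelial and serous ovarian markers had a gene-end peak for 11 of 12 genes. Their summed levels were 209 to 267 CPM in the C libraries, 141 to 191 in the T libraries and 241 to 320 in the P libraries. KRT7 had none. Markers of other cell types were sparse: PTPRC and CD3E (blood), PECAM1 (endothelium) and DCN and LUM (fibroblasts) had no gene-end peak. The gene-end peak of SPI1, the only measured blood marker, was at 10.4 and 13.7 CPM in C, 7.71 and 9.28 in T320 and 18.2 and 18.3 in P320. The endothelial sum (VWF and TIE1) was 13.8 CPM in both C libraries and 3.36 to 4.97 in T320, and PDGFRB, the only measured fibroblast marker, was at 2.78 and 5.83 in C and 9.85 and 11.3 in T320. Their part in the locus values was not tested.

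The low segment was mapped peak by peak in T320 and held 16 peaks in a row, from 21854369 to 22119830, a span of 265.5 kb. It was defined as the run of peaks around the ARF-start peak with a log2 fold change against C of -2 or less, which all 16 met with room to spare. The first peak of the run had -4.69 and the last -9.49. The nearest peaks outside were at 21836402 to 21836991, with 1.92, and at 22136489 to 22137408, with -1.82. At this limit the edges lie in gaps of 17.4 kb on the MTAP side and 16.7 kb on the other. Apart from the run, the window peaks at 21751570 (-2.55), 21830286 (-2.02) and 22228845 (-2.34) also met the limit of -2. A limit of -3 gave the same number of peaks in the run. A limit of -1 added the peak at 22136489, which moves the right edge into a gap of 4.15 kb beyond that peak and the span to 283 kb. The peaks on either side of the left gap were weak in C, with 26 and 18 counts outside the run and 20 and 39 inside it. With a mean C count of at least 50 the run held 14 peaks. Its left edge then lay less finely placed, between 21832665 and 21863349.

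The left edge fell inside MTAP (21802636 to 21941115). The last retained peak ended 34.4 kb into the gene and the first low peak began 51.7 kb into it, so that 86.8 of the gene's 138.5 kb lay in or beyond the first low peak. Of 9 peaks over MTAP, 5 lay outside the run, the start peak among them, and 4 were in the segment. Of those outside, the peak at 21830286 met the limit of -2 (-2.02), with higher peaks between it and the segment. Both CDKN2A peaks, the single CDKN2B peak and all 10 peaks over CDKN2B-AS1 were in it. The last low peak ended 8.31 kb before the annotated end of CDKN2B-AS1 (22128142) and 327 kb before DMRTA1, the next protein-coding gene. In other words the run covered CDKN2A, CDKN2B and nearly all of CDKN2B-AS1 and stopped within MTAP.

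**Figure D1:**
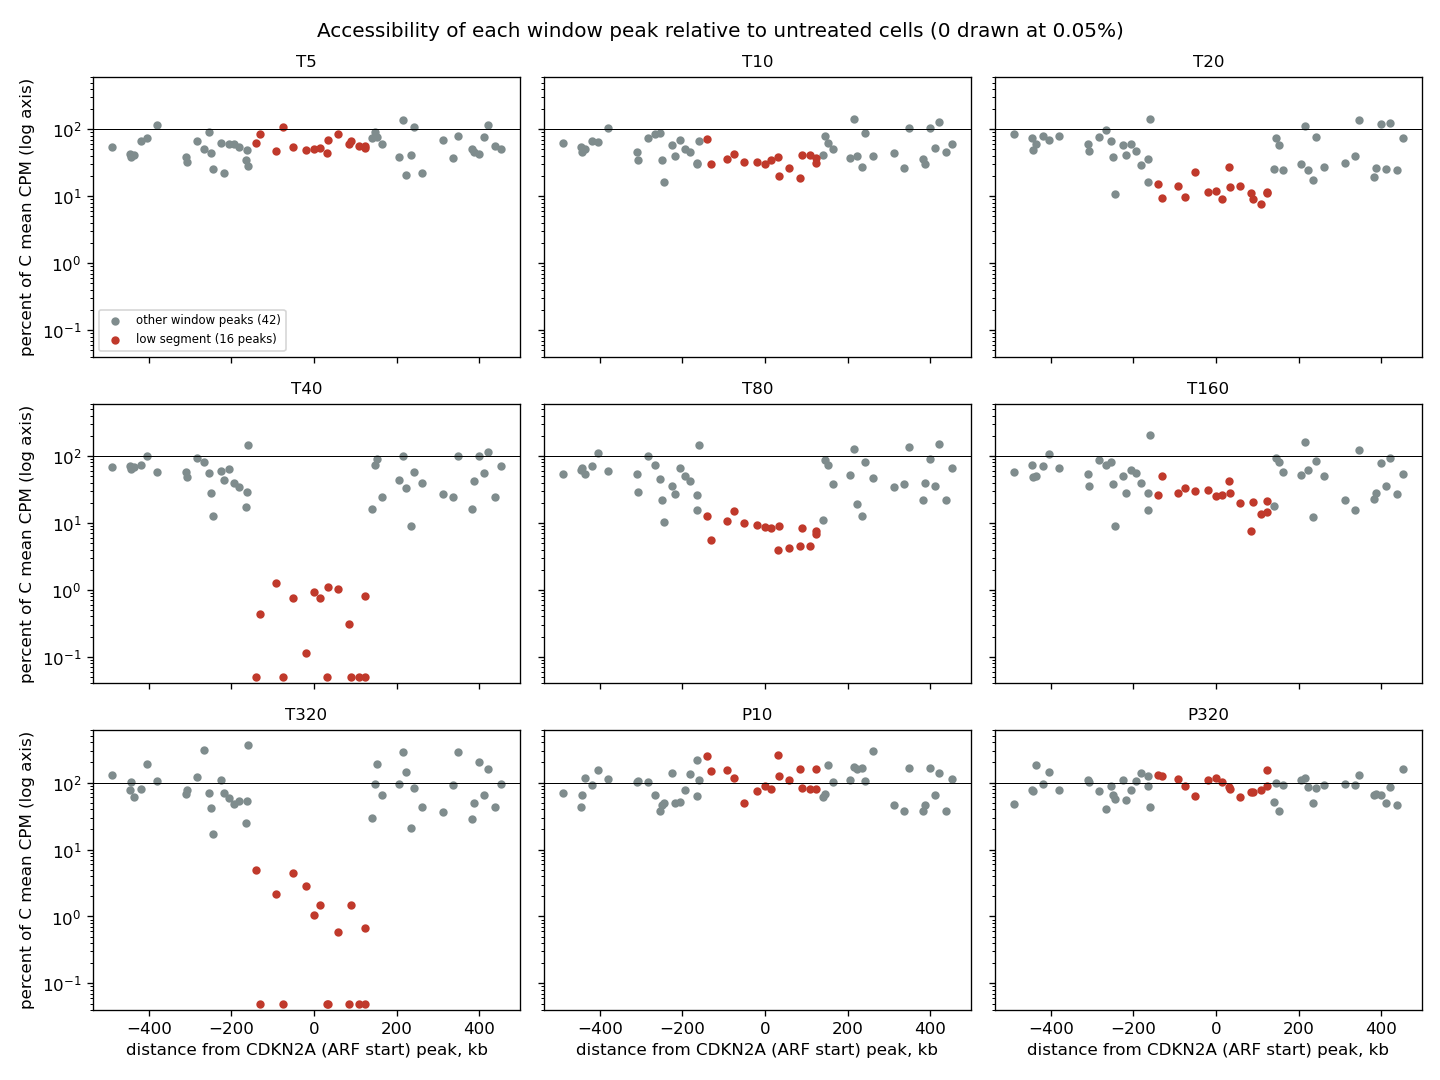
Accessibility of the 58 window peaks as percent of the C mean (log axis, values of 0 drawn at 0.05%) against distance in kb from the ARF-start peak, 1 panel per population, each point the mean of 2 libraries. The 16 segment peaks (red) fall under 2% for T40 and under 5% for T320 with a sharp step on both sides, lie near 10% for T20 and T80, and are mixed with the other peaks (grey) in T5, P10 and P320.

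The same edges were read in each other adapted population, with the caution that all comparisons share the 2 C libraries. In T20 the run at -2 held 16 peaks with the same first start and last end. T40 and T80 gave 17 peaks, the additional one being that at 22136489 to 22137408, and a span of 283 kb. That peak, outside the run in T20 and T320, was at 41.6% of C in T10, 25.6% for T20, 16.2% for T40, 11% for T80, 17.9% for T160 and 29.4% for T320. The next peak, 4.15 kb further at 22141558, was at 73.2% for T20, 72.8% for T40, 86.1% for T80, 92.0% for T160 and 94.6% for T320, so the right edge spanned no more than that 1 peak. In T160 the peak at 22136489 was no higher than the segment as a whole. T5, T10, T160, P10 and P320 had no run at -2 around CDKN2A. At -1, T10 had a run of 16 peaks (21863349 to 22137408) and T160 one of 15 (21903189 to 22137408), which end at the same right-hand peak. The T160 run was broken on the left by the peak at 21863349, just short of the limit at -0.986. The next peak out, at 21854369, had -1.935 in T160.

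On the left, the peak just outside was above C in T160 and T320 but not in every adapted population. At 21836402, within MTAP, C had 2.13 and 0.849 CPM (replicates 1 and 2), T5 0.355 and 0.487, T10 0.802 and 1.21, T20 1.83 and 2.43, T40 2.00 and 2.30, T80 2.04 and 2.37, T160 3.38 and 2.72, T320 4.80 and 6.05, P10 1.5 and 1.79 and P320 0.353 and 0.929. Both T320 libraries lay above all others and those of T160 above both of C. The libraries of T10, T20, T40 and T80 overlapped those of C, and both of T5 lay below them. The first low peak, at 21854369, had 1.64 and 1.84 CPM in C, 0 in both T40 libraries, 0.171 and 0 for T320, and 4.01 and 4.75 for P10, its highest values. Peaks inside MTAP but outside the run were not all near C: those at 21830286 and 21831399 stood at 25.1% and 52.8% of C in T320 and at 17.5% and 29.3% for T40.

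Summed over the 16 peaks, the segment total was near C in the cells exposed for 9 days, where its start peaks and its other peaks lay on opposite sides of the C mean, and lower in every adapted population, in no order of dose. As percent of the C mean (mean ± SD, n = 2), P320 was at 100.1 ± 4.03, P10 at 98.8 ± 0.238, T5 at 56.6 ± 7.06, T10 at 32.8 ± 1.05, T160 at 24.3 ± 2.45, T20 at 11.45 ± 8.20, T80 at 7.93 ± 1.38, T320 at 1.34 ± 1.5 and T40 at 0.561 ± 0.146. C itself spread from 86.05 to 113.9. T20 overlapped T80, and T320 overlapped T40. The remaining neighbours among the adapted populations in this order did not overlap between their libraries. T160, adapted to a higher dose than T40 and T80, kept more of the segment than T20, T40, T80 or T320.

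The residual level differed between libraries of a population. T20 had 17.2% of C in replicate 1 and 5.66% in replicate 2, with 95% Poisson counting intervals of 15.8 to 18.8 and 5.00 to 6.39. In T320 the values were 2.41% from 72 counts (1.88 to 3.03) and 0.280% from 16 counts (0.160 to 0.454), and in T40 0.664% from 17 counts (0.387 to 1.06) and 0.458% from 23 counts (0.290 to 0.687). The paired values of T20 and of T320 differ beyond those intervals, and those of T40 do not. The C libraries held 2687 and 6193 counts over the same peaks. The intervals cover counting error only and take each count as independent. Over all peaks, 65.9 to 74.0% of the counts from 1 to 4 were even in each population. In the segment, 10 of 11 such counts were even in T40 and 8 of 8 in T320. If both reads of a pair were counted, the intervals are too narrow.

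**Figure D2:**
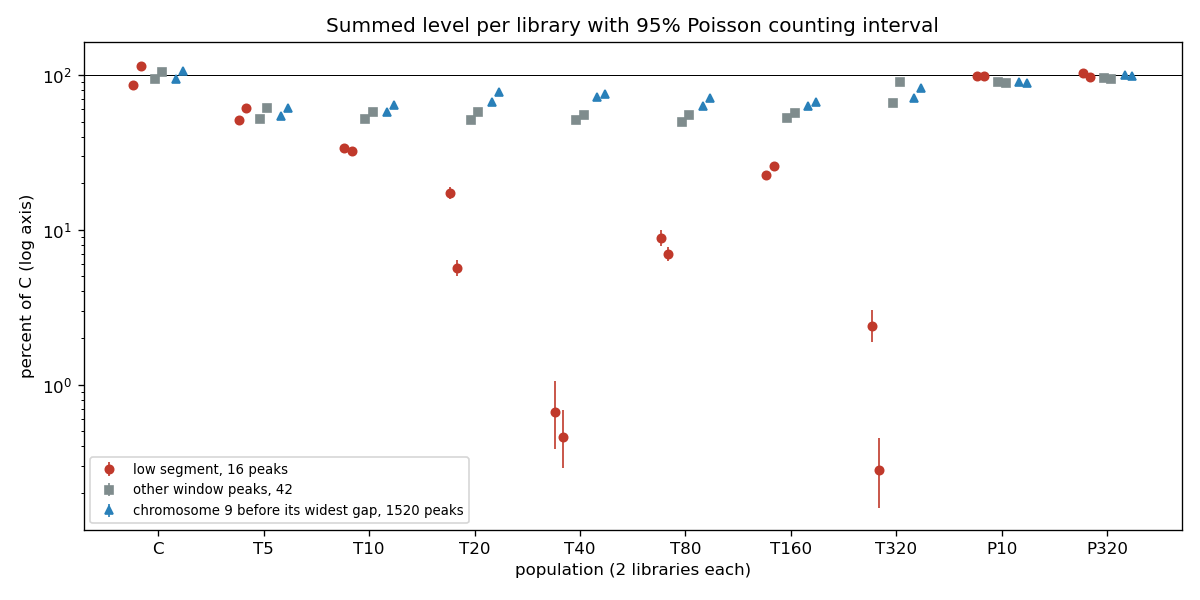
Summed level in each library as percent of the C mean (log axis) with 95% Poisson counting intervals, for the 16 segment peaks (red), the other 42 window peaks (grey) and the 1520 other peaks of chromosome 9 before its widest gap (blue). The segment parts from the grey and blue points from T10 on and is lowest in T40 and T320, at 0.561% and 1.34%, while in T5, P10 and P320 the 3 sets lie close together.

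Peak by peak, the whole segment was near 0 in the lowest populations, where too few counts are left to compare its peaks with each other. In T40 the 16 peaks ran from 0 to 1.25% of C with a median of 0.373%, and in T320 from 0 to 4.92% with a median of 0.632%. In both, all 16 lay below the lowest of the 42 other window peaks, at 8.86% for T40 and 16.9% for T320. Both libraries had no count at 6 of the peaks in T40 and at 7 in T320, where 3 counts, the most that a count of 0 allows, would be 0.300 and 0.153 CPM in the T40 libraries and 0.257 and 0.134 CPM in those of T320. T80 ran from 3.96 to 15.0% (median 8.45%), T20 from 7.71 to 27.2% (11.6%), T160 from 7.51 to 49.8% (25.9%) and T10 from 18.6 to 71.9% (33.8%). In T5 the range of 43.5 to 107.5% (57.0%) lay within that of the other window peaks, 20.6 to 138%.

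T160, with more counts, differed along the segment. Its 7 peaks from 22051957 to 22137408, the last of them just outside the segment, together stood at 15.25% of C and were the longest run at -2 in that population over the whole table. The peaks of CDKN2A and CDKN2B were at 25.4 to 30.8%. The highest was the peak at 21863349 within MTAP, at 49.8%. The other segment peaks within MTAP, at 21854369, 21903189 and 21919490, were at 26.2%, 27.8% and 32.7%. The peak at 22026242, within CDKN2B-AS1, was at 42.1%, so the level did not rise steadily towards MTAP.

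**Figure D3:**
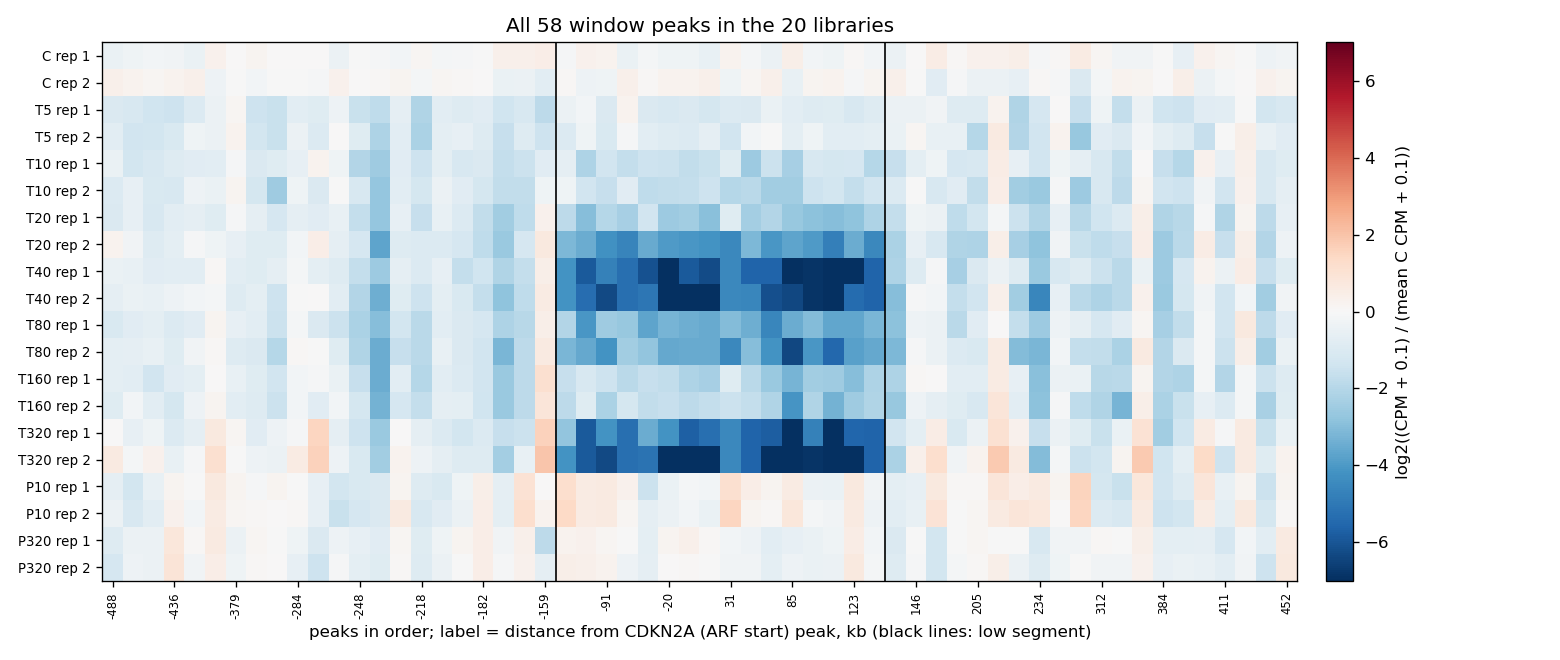
All 58 window peaks (columns, in order along the chromosome, labelled by distance in kb from the ARF-start peak) in the 20 libraries (rows), coloured by the log2 ratio of CPM to the C mean with 0.1 added to each. The block between the black lines is the 16-peak segment, darkest in the T40 and T320 libraries, paler in those of T20 and T80, and without such a block in the P libraries.

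The run stood alone in its length in 4 populations. At -2 over the whole table, it was the longest in T20 (16 peaks, the next 7), T40 (17, the next 5), T80 (17, the next 7) and T320 (16, the next 7). Of 104585 peaks with a mean C count of at least 10, 30 were under 5% of C in T40 and 37 for T320, and 16 of each were in the segment. These figures rank the locus on the values it was chosen for.

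The 42 other window peaks were lower in the adapted populations too, but to a similar level in most of them. Their sum was at 56.5 ± 6.69% of C in T5, 54.9 ± 4.25% for T10, 54.2 ± 4.59% for T20, 53.1 ± 2.85% for T40, 52.7 ± 3.76% for T80, 54.7 ± 3.03% for T160 and 78.2 ± 17.4% for T320 (65.9% and 90.5%). P10 was at 89.5 ± 0.709% and P320 at 95.1 ± 1.20%. The rest of chromosome 9 before its widest gap between peaks (43250739 to 61523780), 1520 peaks, stood at 58.1% for T5, 60.7% for T10, 71.8% for T20, 73.8% for T40, 67.1% for T80, 64.8% for T160 and 76.3% for T320. The 3078 peaks after the gap were at 96.4 to 111% in the adapted populations. In T5 the segment thus sat at the level of its surroundings, and in the other adapted populations below them.

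Within a library, the ratio of segment to other window counts needs no scaling between libraries. It was 0.542 and 0.647 in C (replicates 1 and 2), 0.595 and 0.601 for T5, 0.386 and 0.331 for T10, 0.202 and 0.0589 for T20, 0.00776 and 0.00496 for T40, 0.106 and 0.0751 for T80, 0.256 and 0.273 for T160, 0.0218 and 0.00185 for T320, 0.654 and 0.664 for P10 and 0.641 and 0.616 in P320. T5 lay between the C libraries. T10 and every higher adapted population lay below both, and T160 lay above T20, T40, T80 and T320. Relative to the mean C ratio, T10 stood at 65.0 and 55.7%, T160 at 43.1 and 46.0%, and T40 at 1.31 and 0.834%.

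The p16-start peak of CDKN2A (21973975 to 21976099) had 36.3 and 53.4 CPM in C, 20.3 and 23.5 for T5, 15.6 and 13.7 for T10, 7.58 and 2.76 for T20, 0 and 0.102 for T40, 4.58 and 3.63 for T80, 13.3 and 14.3 for T160, 2.40 and 0.179 for T320, 33.1 and 33.6 for P10 and 50.6 and 46.0 in P320. The T40 values rest on 0 and 2 counts and those of T320 on 28 and 4. All T libraries lay below both C libraries, and T320 replicate 1 lay above T320 replicate 2 and both T40 libraries. The log2 fold change against C was -1.04 ± 0.40 (SE) in T5, -1.62 ± 0.41 in T10, -1.70 ± 0.42 in T160 and -5.42 ± 0.55 in T320.

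The ARF-start peak of CDKN2A (21993963 to 21997043), which also spans the start of CDKN2B-AS1 so that the transcripts cannot be told apart in it, had 43.0 and 64.7 CPM in C, 26.2 and 28 for T5, 16.2 and 16.8 for T10, 9.91 and 3.14 for T20, 0.800 and 0.204 for T40, 4.92 and 4.58 for T80, 12.2 and 15.2 for T160, 0.942 and 0.179 for T320, 48.9 and 48.0 for P10 and 67.7 and 56.5 in P320. It is the strongest peak of the segment in C, and again all T libraries lay below both C libraries. T40 rests on 8 and 4 counts and T320 on 11 and 4.

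The CDKN2B-start peak (22008262 to 22009728) had 32.9 and 60.2 CPM in C, 19.7 and 29.7 for T5, 15.6 and 16.9 for T10, 6.08 and 2.43 for T20, 0.500 and 0.204 for T40, 3.99 and 3.93 for T80, 9.28 and 14.7 for T160, 1.11 and 0.269 for T320, 40.2 and 33.3 for P10 and 49.1 and 45.7 in P320. The population means stood in the same order at the p16, ARF and CDKN2B starts, with T20 overlapping T80 and P320 overlapping C in each. P10 overlapped C at the ARF and CDKN2B starts, and T10 overlapped T160 at the p16 start. T320 overlapped T40 at the ARF and CDKN2B starts, and at the p16 start both T320 libraries lay above those of T40. Its log2 fold change was -3.51 ± 0.40 in T20 and -3.56 ± 0.40 in T80.

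The MTAP-start peak (21801706 to 21803788), outside the segment, had 34.9 and 40.0 CPM in C, 20.0 and 25.3 for T5, 17.0 and 21.4 for T10, 18.9 and 16.5 for T20, 11.8 and 17.9 for T40, 18.5 and 18.8 for T80, 19.5 and 22.8 for T160, 15.5 and 19.9 for T320, 30.5 and 28.3 for P10 and 42.4 and 36.9 in P320. It was lower than C in all T libraries, at 39.8 to 60.5% of C by population, and nowhere near 0. Its log2 fold change ran from -0.72 ± 0.21 in T5 to -1.32 ± 0.21 in T40. The start of MTAP and its later part, which holds 4 segment peaks, were thus at different levels in T40 and T320.

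**Figure D4:**
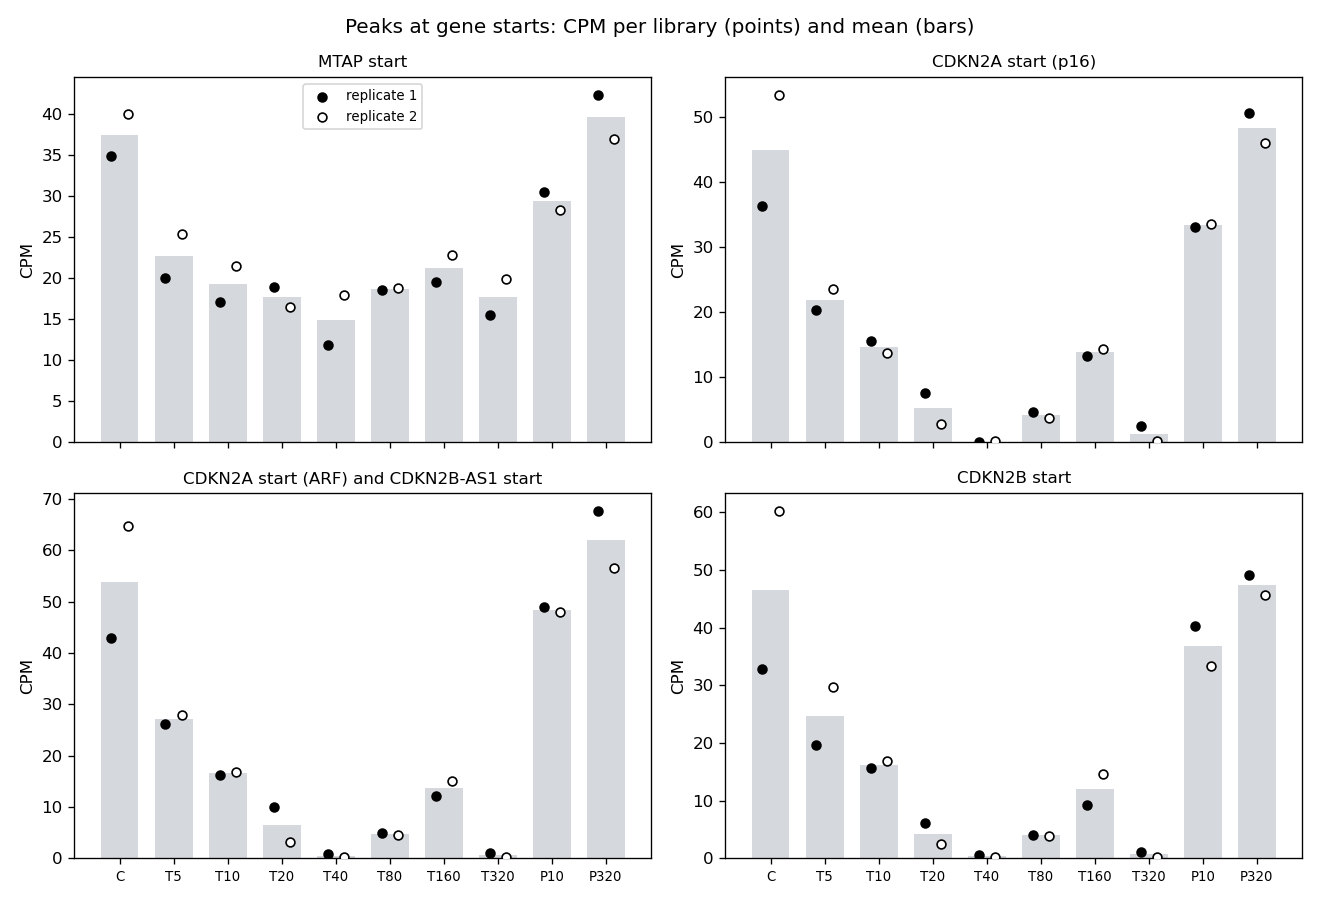
CPM of the peaks at the MTAP, p16, ARF (with CDKN2B-AS1) and CDKN2B starts in each library (points) with the mean of 2 libraries (bars). The MTAP start keeps 11.8 to 25.3 CPM in all adapted libraries, while the other 3 reach 0 to 2.40 CPM in T40 and T320 and stand at 9.28 to 15.2 CPM in T160.

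The 3 start peaks and the 13 other peaks of the segment overlapped in level in most adapted populations. They parted after the 9-day exposures, but also within each C library. The start peaks stood at 50.7 ± 7.29% of C in T5, 32.7 ± 0.0106% for T10, 11 ± 7.41% for T20, 0.623 ± 0.385% for T40, 8.82 ± 0.661% for T80 and 1.75 ± 1.86% for T320. The others stood at 64.2 ± 6.76%, 33.1 ± 2.42%, 12.1 ± 9.22%, 0.479 ± 0.167%, 6.77 ± 2.32% and 0.812 ± 1.03%. Libraries of the sets overlapped in T10, T20, T40, T80 and T320. They did not in T5, or in T160 at 27.2 ± 4.59% and 20.5 ± 0.344%. In P10 the start peaks were at 81.6 ± 3.58% and the others at 121 ± 5.23%, the widest gap of all, and in P320 they parted the other way, at 109 ± 9.37% and 89.0 ± 2.95%. These differences between the sets were not tested. In C the start peaks varied more (77.2 and 123% of their mean) than the others (97.6 and 102%). The start-peak levels of P10 (79.1 and 84.1%) and P320 (102 and 115%) lay within that C range. The other peaks lay above both C libraries in P10 (117.5 and 124.9%) and below both in P320 (86.9 and 91.1%).

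The 9-day exposures were not part of how the locus was chosen, so they were tested against C, with which both share the same 2 libraries. The edgeR quasi-likelihood test was used, and a call needed an adjusted p (Benjamini-Hochberg, over all 105048 peaks) under 0.05 together with a change of 1 or more on the log2 scale in either direction. None of the 16 segment peaks was called in P10 or P320 against C, where 22.1% and 11.8% of all peaks were called. The fit took each peak's spread from all 10 groups together, including T libraries whose replicates differed in the segment. Standard errors in P10 were 0.40 at the p16 start and 0.35 at the ARF start, against 0.21 at the MTAP start. The absence of a call therefore does not show that a segment peak was unchanged. At an unadjusted p under 0.05, 2 of the 16 passed in P10 and 1 in P320. The segment's log2 fold changes ran from -1.01 to 1.40 in P10 (median 0.17, against -0.10 over all peaks) and from -0.70 to 0.61 in P320 (median -0.18, against -0.11).

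At the ARF start, P10 differed from C by -0.16 ± 0.35 (log2 fold change ± SE, adjusted p = 0.755) and P320 by 0.20 ± 0.34 (adjusted p = 0.729). At the p16 start the differences were -0.43 ± 0.40 (adjusted p = 0.420) and 0.10 ± 0.40 (0.888). At CDKN2B they were -0.35 ± 0.34 (0.451) and 0.02 ± 0.34 (0.978). At the MTAP start they were -0.35 ± 0.21 (0.199) and 0.08 ± 0.20 (0.825). P320 against P10 gave 0.36 ± 0.34 at ARF (0.475), 0.54 ± 0.40 at p16 (0.344), 0.37 ± 0.34 at CDKN2B (0.457) and 0.43 ± 0.20 at MTAP (0.139). None passed, and the standard errors leave room for moderate differences in either direction. Without C replicate 1 all 4 P320 values against C were below 0, and without C replicate 2 P10 was at 0.17 for ARF and 0.16 for CDKN2B.

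Outside the segment, 11 of the 42 window peaks were called in P10 against C, 2 of them gained and 9 lost, beside 9.32% gained and 12.8% lost over all peaks. The gained peaks were at 21831399 within MTAP (1.12 ± 0.28, adjusted p = 0.00475) and at 22256637 (1.59 ± 0.58, adjusted p = 0.0414). The largest fall was at 21740624, within the non-coding LOC107987026 (-1.43 ± 0.25, adjusted p = 0.000471). The count was 7 without P10 replicate 1, 5 without P10 replicate 2 and 4 without C replicate 2.

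In P320 against C, edgeR called none of the 58 window peaks, though 16 had an unadjusted p under 0.05. DESeq2 called 1, total-count scaling gave 2, and leaving out either C library gave 3. A replicate block gave more than any of these, as the last section lists, though the replicate numbers were not taken as pairs. The peak at the start of MIR31HG (21558810 to 21560668), host transcript of the microRNA miR-31, had the smallest adjusted p, 0.00972, with 0.85 ± 0.21, under the fold minimum. P320 against P10 gave 1 gained and 4 lost peaks, all outside the segment, beside 13.8% called over all peaks, and 1 or 2 calls when any 1 of the 4 libraries was left out.

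The genes on which these proteins act lie elsewhere in the genome. A list of 41 was used, each through its gene-end peak (within 1 kb of either end of the gene) with the highest mean count, and all 41 were measured. It holds 20 genes of the CDK4/6-RB axis, 4 of the ARF-MDM2 axis, 4 chromatin regulators known to act on the locus and 13 of methionine salvage and the PRMT5 complex. In T320 against C, 2 were gained and 2 lost, beside 6.12% gained and 6.78% lost among 15322 gene-end peaks and 30.5% called among all peaks. The median was 0.18 (0.10 over gene-end peaks). The split turned on the C library kept: without C replicate 1 it was 0 gained and 4 lost (median -0.03), and without C replicate 2 it was 6 gained and 1 lost (median 0.40).

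The T320 calls came from different branches. E2F2, an E2F factor held by RB proteins, was lower (-1.16 ± 0.19, adjusted p = 9.0e-05), going from 29.5 and 29.7 CPM in C to 15.8 and 10.9. WDR77, the partner of PRMT5, was lower too (-1.22 ± 0.23, adjusted p = 0.000316), from 34.6 and 49.4 to 16.9 and 19.3. KDM6B, a histone H3K27 demethylase, was higher (1.02 ± 0.21, adjusted p = 0.000618), from 64.3 and 93.4 to 140 and 180. Without T320 replicate 2 the count was 1, with E2F2 at -0.91 and KDM6B at 0.83. Without C replicate 1 KDM6B (0.78) was not called, and without C replicate 2, when 7 genes were called, WDR77 was not (-0.93).

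CDK4 and CDK6, the kinases that p16 and p15 bind, and RB1, which those kinases phosphorylate, were not called in T320. CDK4 had 0.31 ± 0.27 (adjusted p = 0.361), CDK6 0.11 ± 0.18 (0.659) and RB1 -0.05 ± 0.26 (0.885). PRMT5, the methyltransferase that methylthioadenosine inhibits, had -0.42 ± 0.20 (0.0996), and MAT2A, which makes its methyl donor, -0.12 ± 0.20 (0.673). In P10 and P320 these 5 were not called either. CDK6 had 0.51 ± 0.18 (adjusted p = 0.0498) in P320, under the fold minimum.

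In the 9-day exposures every called member of the list was gained. P10 gained 6 and lost none, with a median of 0.10, beside 9.89% gained and 2.32% lost among gene-end peaks (median 0.14). P320 gained 7 and lost none, with a median of 0.48, beside 14.0% gained and 1.1% lost (median 0.38). Gene-end peaks took 38.2 and 37.5% of all counts for P320 and 27.8 to 35.3% for every other library, and their part in these calls was not tested. The P320 count was 12 without C replicate 2.

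CDKN1C (p57), another CDK inhibitor, had the smallest adjusted p in both, at 1.77 ± 0.24 (5.9e-05) in P10 and 2.31 ± 0.24 (1.7e-05) in P320. SRM, a spermidine synthase whose reaction releases methylthioadenosine, had 1.21 ± 0.18 and 1.67 ± 0.18, and CCNE1, the cyclin of CDK2, 1.21 ± 0.20 and 1.65 ± 0.20. The Polycomb genes CBX7 (1.19 ± 0.25 in P10, 1.40 ± 0.25 in P320) and BMI1 (1.07 ± 0.28 and 1.45 ± 0.28) were gained in both, EZH2 in P320 (1.39 ± 0.19) while at 0.96 ± 0.19 in P10, and SMS, spermine synthase, in both (1.45 ± 0.35 and 1.56 ± 0.35). Without C replicate 1, CBX7 in P10 was not called (0.84).

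Of 9 neighbouring genes on the short arm of chromosome 9, 7 had a gene-end peak. In T320 1, ELAVL2, a neuronal RNA-binding protein gene, was lost, beside the 6.78% lost among all gene-end peaks (-3.69 ± 0.47, adjusted p = 8.4e-06), from 5.83 and 10.2 CPM in C to 0.685 and 0.583. DMRTA1, a transcription factor gene and the nearest coding gene beyond the right edge, had 23.7 and 32.7 CPM in C, 20.8 and 33.8 for T320 and 44.3 and 45.7 for P320. T320 thus overlapped C, and both P320 libraries lay above C. In the edgeR test DMRTA1 was not called in P320 against C (0.67 ± 0.23, adjusted p = 0.052).

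Over the 20 libraries, the gene-end peaks outside the window most like the summed segment in log2 CPM were those of REC8, a meiotic cohesin gene (Pearson r = 0.974), ELOA, an elongin subunit gene (0.942), CFAP65, a cilia gene (0.937), a peak shared by PHF11, RCBTB1 and SETDB2-PHF11 (0.928) and NUDT19, a Nudix hydrolase gene (0.921), of 15318 peaks compared. These are descriptions, since the libraries share populations and depth. The REC8 peak went from 51.7 ± 9.69 CPM in C to 8.92 ± 1.01 in T40 and 6.84 ± 3.65 in T320, with 36.5 ± 5.51 in T160. The ELOA peak went from 12.2 ± 1.88 to 3.21 ± 0.421 in T40 and 8.20 ± 0.158 in T160. Such a peak can lie at either end of its gene.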

How the data were processed

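Kuramochi libraries were prepared by Omni-ATAC and read paired-end, per the labels' protocols. The deposited table gives, for each consensus peak and library, an unnormalized whole-number count that the authors call a read count. Per the submitters' processing notes the tools included MACS2, HOMER 4.1, Bowtie2, Trim Galore, SAMtools, Picard, DESeq2 and deepTools (3.1 and 3.5.1), with build GRCh38 and no roles given. Whether reads or fragments were counted, how duplicates were handled and whether starts count from 0 are not given in the sources used here, and coordinates stand as in the table.

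An edgeR model (version 4.0.16 in R 4.3.3; TMM-scaled, robust quasi-likelihood) covered all 105048 peaks and 20 libraries in the 10 groups of the labels, and filterByExpr removed no peak. The script was tested on simulated data. Library totals of 9627970 to 29699950 counts set the precision. Segment levels are summed counts over TMM-scaled library size as percent of the C mean, with exact 95% Poisson intervals, over peaks with a mean C count of at least 10. Gene positions come from RefSeq (GRCh38.p14). Named features are the peaks at CDKN2A, CDKN2B, MTAP and CDKN2B-AS1 and at the segment's edges, the 5 most alike gene-end peaks outside the window, CDK4, CDK6, RB1, PRMT5 and MAT2A, and up to 4 called list members with the smallest adjusted p (1 is not reported here); BMI1, SMS, ELAVL2, DMRTA1, MIR31HG and the window peaks called in P10 were named after their values were seen. The members and lists were chosen with earlier results of these data known.

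Alternatives were total-count scaling, DESeq2 size factors, chromosome 9 scaling, no filter, a strict filter (2 CPM in 2 libraries), DESeq2 1.42.0, a replicate block, the compared groups alone, no fold minimum, other segment limits and leaving out each library.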

Additional observations from a re-analysis of the deposited data

How the results depend on the processing

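No called value changed sign. Of the count and level summaries, 187 settings stayed on their side or within the spread, 34 levels moved beyond the spread, and 14 counts rose and 8 fell by over 1.5 times; of the single peaks 444 stayed, 1 became called, 7 lost the call and 16 uncalled values changed sign. Leaving out 1 library, log2 fold changes ran from -0.417 to 0.172 (ARF start) and -0.713 to 0.160 (CDKN2B) in P10, from -0.059 to 0.530 (ARF start), -0.347 to 0.525 (CDKN2B), -0.013 to 0.216 (MTAP), -0.146 to 0.412 (p16 start) and -0.133 to 0.638 (CDK4) in P320, and from -0.028 to 0.762 (CDK4), -0.084 to 0.270 (CDK6), -0.440 to 0.229 (RB1) and -0.365 to 0.085 (MAT2A) in T320. Total-count scaling put CDKN2B in P320 at -0.04. With no fold minimum the pathway list had 11 calls in T320, 13 in P10 and 15 in P320 and the window 2 in P320 and 8 in P320 against P10. The replicate block gave 5 window calls in P320 against C, 10 in P320 against P10 and 13 in P10, 4, 6 and 7 pathway calls in T320, P10 and P320, and a P10 segment level of 100.7%; it changed no other call. The numbers were not taken as pairs, since each group has 2 libraries and the labels tie no number to a culture or day: deviations of same-numbered libraries correlated at 0.17 to 0.40 between C and the T populations, at 0.28 to 0.59 between T populations, at -0.01 between C and P10 and at -0.09 between C and P320. For P320 against C, total-count scaling gave 2 and DESeq2 1; fitting the compared groups alone gave 10 in P320 against P10. Leaving out 1 library, the pathway list had 1 to 7 calls in T320 and 7 to 12 in P320, and the window 4 to 13 in P10, 0 to 3 in P320 and 1 to 2 in P320 against P10. A group left with 1 library took its spread from the other groups. Chromosome 9 scaling put the segment at 70.2% of C in T5, 37.7% in T10, 26.9% in T160, 96.3% in P10 and 92.6% in P320, and the other window peaks at 69.8, 62.6, 57.4, 60.2, 86.8 and 87.5% in T5, T10, T80, T160, P10 and P320. Total-count scaling gave 100.4% and 95.4% for the segment in P10 and P320 and 90.5% and 90.1% for the other peaks. The limit of -1 gave 0.931% in T40 and 97.8% in P10, and a C count of at least 50 gave 96.3% (segment) and 88.7% (other peaks) in P10. Leaving out 1 library gave segment ranges of 49.6 to 65.7% in T5, 28.8 to 38.2% in T10, 21.3 to 28.2% in T160, 86.7 to 114.8% in P10 and 87.8 to 116.3% in P320, and other-peak ranges of 50.5 to 56.0% in T40, 85.0 to 94.4% in P10 and 90.4 to 100.3% in P320. In T20 and T320 the segment was at 5.66 to 17.2% and 0.280 to 2.41%. The cause of these shifts was not tested. Values near 0 rest on 0 to 28 counts a peak.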
